A study of Mus musculus with 10 samples.

Results

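The glucocorticoid receptor gene Nr3c1 and 7 genes known as targets of the receptor, Tsc22d3, Fkbp5, Klf9, Sgk1, Ddit4, Txnip and Birc3, were followed through mouse regulatory T cells (Treg cells) sorted by Helios. These 8 genes were taken by symbol from a table of 13252 genes, and all 8 passed the minimum mean for testing. One group, Helios neg, holds CD4+RFP+GFP- cells, labelled Helios-, and the other, Helios pos, holds CD4+RFP+GFP+ cells, labelled Helios+. Each group has 5 libraries, numbered as replicates 1 to 5 in the labels. The labels tie GFP to Helios, the zinc finger transcription factor encoded by Ikzf2. They leave unsaid what RFP marks, which mice carried the reporters, how old they were, and what a replicate number stands for. The design text of the series speaks of wild-type and knockout cells. Here each library was placed by its own sample label, and a difference is one between sorted populations. The labels record no treatment with a glucocorticoid or any other agent. No label says whether replicates came from separate mice, so the p-values speak only of the spread among these libraries, which may be technical.

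Glucocorticoids are steroid hormones of the adrenal cortex that cross the cell membrane and bind the receptor in the cytoplasm, where chaperones hold it ready for hormone. The bound receptor enters the nucleus and sits on DNA as a dimer, at an element made of an inverted repeat of 6 bases with 3 bases between the arms. In T cells the pathway restrains inflammatory genes and, in thymocytes, can lead to death, and Treg cells are known to depend on it in several disease models. The response has its own brake, since Fkbp5 encodes a co-chaperone (FKBP51) that lowers the receptor's affinity for hormone.

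The start regions of the target genes were read for this element, because it is the sequence through which the receptor binds DNA directly. RefSeq windows of GRCm38.p6, which run from upstream of an annotated start to just inside the transcript, were found for 7 of the 8 genes, 14 windows in all. The window of Sgk1 on chr10:21993640-21993939 (plus strand) held the full palindrome, spelled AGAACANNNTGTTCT on either strand, and the window of Tsc22d3 on chrX:140600473-140600772 (minus strand) held 1 arm of it. Both are shown 5′ to 3′ on the strand of the gene, with every AGAACA or TGTTCT in capitals. The start window of Fkbp5, on chr17:28486100-28486399 (minus strand), is shown for contrast because it held neither.
Sgk1: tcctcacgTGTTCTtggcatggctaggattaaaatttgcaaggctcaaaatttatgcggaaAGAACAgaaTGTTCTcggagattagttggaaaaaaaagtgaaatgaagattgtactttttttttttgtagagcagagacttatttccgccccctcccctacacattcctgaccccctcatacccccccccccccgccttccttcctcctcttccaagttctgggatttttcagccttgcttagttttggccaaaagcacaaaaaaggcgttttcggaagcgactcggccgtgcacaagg
Tsc22d3: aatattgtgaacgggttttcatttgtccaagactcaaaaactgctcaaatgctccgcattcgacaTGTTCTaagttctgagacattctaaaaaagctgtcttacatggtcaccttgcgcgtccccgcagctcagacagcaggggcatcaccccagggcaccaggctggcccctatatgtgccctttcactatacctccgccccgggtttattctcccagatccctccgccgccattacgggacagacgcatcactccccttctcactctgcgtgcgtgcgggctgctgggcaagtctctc
Fkbp5: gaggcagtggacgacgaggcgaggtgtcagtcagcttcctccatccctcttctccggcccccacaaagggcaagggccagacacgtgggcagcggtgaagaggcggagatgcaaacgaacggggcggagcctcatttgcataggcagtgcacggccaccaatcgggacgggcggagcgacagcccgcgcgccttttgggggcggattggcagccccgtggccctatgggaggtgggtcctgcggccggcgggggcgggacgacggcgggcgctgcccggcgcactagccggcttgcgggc

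The match in Sgk1 reads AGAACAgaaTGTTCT and lies at chr10:21993701-21993715, with its first base 189 bases before the annotated transcript start inside that window. A further TGTTCT lies upstream of it in the same window. Sgk1 had the most windows of these genes, each at another annotated start, and only this one held the full element. In Tsc22d3, which also had several windows, the only match, TGTTCT, begins 185 bases before the annotated transcript start inside its window. Which starts these cells use was not tested. The full element was in 3 of 32851 windows of the genome (0.00913%) and in 1 of 9774 windows of the genes tested here (0.0102%), that of Sgk1. An arm on its own is common. It was in 4 of the 14 windows of the target genes, 3 of them of Sgk1, and in 6233 of all 32851 windows (19.0%), or 12.4% of the windows of genes tested. A full match always holds the shorter one, on both strands. The windows of Fkbp5, Klf9, Ddit4, Txnip and Birc3 held none of these letters, which says nothing of sites elsewhere. Many sites of the receptor are known to lie far from gene starts.

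The libraries held 4872348 to 6948692 reads in genes, and the ribosomal RNA precursor Rn45s took 8.54% to 18.6% of them. Ikzf2 had 487 ± 56.5 normalized counts in Helios neg (SD, n = 5) and 10367 ± 456 in Helios pos libraries (SD, n = 5), so its level went with the labels in all libraries. The Treg transcription factor gene Foxp3 had 3526 ± 226 and 3570 ± 201, and Cd4 had 3334 ± 446 and 3208 ± 276. A normalized count is a library's read count for a gene after scaling by that library's size factor. The comparison of the sorts used limma on log2(normalized count + 1) over 10718 genes, with calls at a Benjamini-Hochberg adjusted p under 0.05. In that fit 14.1% of all genes were called higher and 10.7% lower in Helios pos cells. Of 6 listed Treg markers 2 were called higher, Il2ra and Ctla4 (limma adjusted p = 0.0249 and 0.0322), and the others were not called. Of the 8 genes of the pathway, 1 was called higher (Klf9) and 1 lower (Sgk1). Their median log2 change was −0.05, against −0.02 for all genes tested.

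The receptor gene varied little between libraries. Nr3c1 (chromosome 18, 39410545 to 39519421, minus strand) had 1293, 1551, 1560, 1384 and 1400 normalized counts in Helios neg replicates 1 to 5. In Helios pos replicates 1 to 5 it had 1283, 1427, 1514, 1388 and 1474. The groups overlapped throughout, and no library stood more than 1.21-fold above another of the same sort. The means were 1438 ± 115 and 1417 ± 89.1 (SD, n = 5), so the log2 change was −0.02 ± 0.07 (SE; adjusted p = 0.88 in limma). The difference was negative in 3 of 5 pairs of equal replicate number and positive in 2.

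Fkbp5, the gene of the co-chaperone that brakes the receptor (chromosome 17, 28399094 to 28517527, minus strand), varied several-fold within each sort. It had 987, 1257, 371, 288 and 236 normalized counts in Helios neg replicates 1 to 5, and 1194, 1288, 558, 418 and 388 in Helios pos replicates 1 to 5. Replicates 1 and 2 were high in both sorts and replicates 3 to 5 low, so the groups overlapped almost wholly. The log2 change was 0.43 ± 0.59 (SE; limma adjusted p = 0.667). Yet the Helios pos library was the higher one in 5 of 5 pairs, by log2 differences of 0.03 in replicate 2 to 0.71 in replicate 5. With the replicate number as a block the standard error was 0.08 and Fkbp5 was called higher (limma adjusted p = 3.75e-04).

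Tsc22d3 (chromosome X, 140539528 to 140600659, minus strand) encodes GILZ, a leucine zipper protein that carries much of the hormone's anti-inflammatory action. It had 980.5, 2067, 723, 441 and 678 normalized counts in Helios neg replicates 1 to 5. In Helios pos replicates 1 to 5 it had 769, 1444, 393, 228 and 460.1. Replicate 2 was the highest library and replicate 4 the lowest in both sorts, 4.69-fold apart in Helios neg and 6.32-fold apart in Helios pos. The log2 change was −0.65 ± 0.57 (SE; limma adjusted p = 0.471). Every pair had less in Helios pos, by −0.35 to −0.95 on the log2 scale. The block brought the standard error to 0.07, and Tsc22d3 was then called lower (limma adjusted p = 1.3e-06). Fkbp5 and Tsc22d3, both textbook targets, were thus called in opposite directions with the block.

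**Figure D1:**
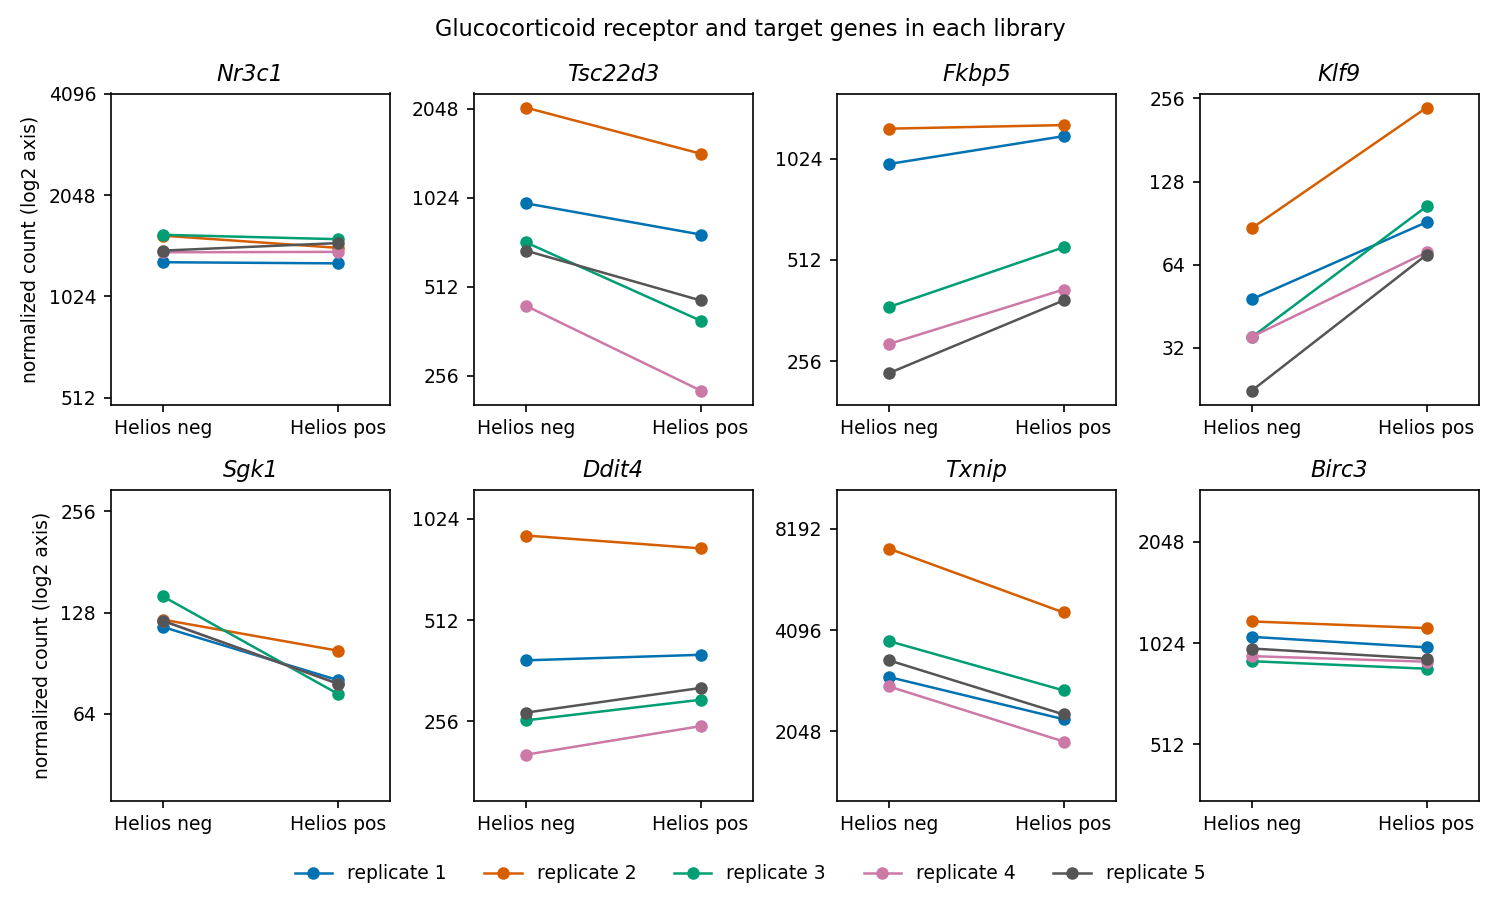
Normalized count on a log2 axis of the receptor gene and 7 target genes in Helios neg and Helios pos libraries. Each point is a library and each line joins the 2 libraries of a replicate number, and every panel spans at least the same fold range. Replicate 2 (orange) is the top line for Tsc22d3, Fkbp5, Klf9, Ddit4, Txnip and Birc3, while Nr3c1 runs flat and Sgk1 falls in every pair.

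Klf9, a Krüppel-like transcription factor (chromosome 19, 23141226 to 23168134, plus strand), rose in Helios pos cells. It had 48.0, 86.8, 35.0, 35.1 and 22.4 normalized counts in Helios neg replicates 1 to 5, and 91.2, 237, 104, 70.9 and 69.5 in Helios pos replicates 1 to 5. Helios neg replicate 2 lay inside the range of Helios pos, so the groups overlapped. The means of 45.4 ± 24.8 and 115 ± 69.8 (SD, n = 5) were 2.52-fold apart. The log2 change was 1.30 ± 0.38 (SE; limma adjusted p = 0.0238), and all 5 pairs were higher in Helios pos, by 0.91 to 1.59. In fits that had no block, the call was lost without Helios neg replicate 1, 3 or 5 (limma adjusted p = 0.0666, 0.0732 and 0.0512). It was also lost there without both libraries of replicate 1 or 3 (limma adjusted p = 0.107 and 0.132). The block brought the standard error of Klf9 to 0.14, and it was called higher (limma adjusted p = 1.82e-07). The blocked change was 1.26 when replicate 2 was left out of both sorts (limma adjusted p = 2.25e-05). Blocked fits that leave out replicate 1 or 3 were not run.

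Sgk1, a kinase named for its induction by serum and glucocorticoids (chromosome 10, 21882184 to 21999903, plus strand), fell in Helios pos cells. It had 116, 122, 143, 121 and 121 normalized counts in Helios neg replicates 1 to 5, and 80.7, 98.7, 73.5, 78.7 and 78.8 in Helios pos replicates 1 to 5. The lowest Helios neg library lay above the highest Helios pos library. Among the 8 genes this separation was seen for Sgk1 only, where 19.5% of all genes tested had groups that did not overlap. The means of 125 ± 10.6 and 82.1 ± 9.67 (SD, n = 5) made it 1.52-fold lower, with a log2 change of −0.60 ± 0.11 (SE; adjusted p = 8.94e-04 in limma). All 5 pairs were lower, by −0.30 to −0.95. The window printed above with the full element is 1 of several of this gene.

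Ddit4 (chromosome 10, 59949669 to 59951834, minus strand) encodes REDD1, an inhibitor of the growth kinase complex mTORC1. It had 389, 914, 258, 204 and 272 normalized counts in Helios neg replicates 1 to 5, and 404, 837, 297, 248 and 322 in Helios pos replicates 1 to 5. Replicate 2 stood well above every other library in both sorts, and the order of the replicates was the same in both. The log2 change was 0.13 ± 0.46 (SE; limma adjusted p = 0.878), with 4 pairs higher and 1 lower in Helios pos.

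Txnip, an arrestin-like protein that binds thioredoxin and limits glucose uptake (chromosome 3, 96557957 to 96561883, plus strand), was the most abundant of the 8. It had 2972, 7155, 3800, 2787 and 3332 normalized counts in Helios neg replicates 1 to 5, and 2227, 4623, 2712, 1912 and 2301 in Helios pos replicates 1 to 5. The ranges overlapped, again with replicate 2 on top in both sorts. The log2 change was −0.52 ± 0.30 (SE; limma adjusted p = 0.244), and the differences of the pairs lay close together, from −0.42 to −0.63. With the replicate block Txnip was called lower (SE 0.04; limma adjusted p = 2.01e-09). It was also called lower with no block when both libraries of replicate 2, or Helios pos replicate 2 alone, were left out (limma adjusted p = 0.0130 and 0.0473). An annotated gene on the other strand covers 19.4% of the exon sequence of Txnip, and the strand setting of the counting is not given in the sources used here.

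Birc3, the ubiquitin ligase cIAP2 that protects cells from death signals (chromosome 9, 7848699 to 7873186, minus strand), varied little in both sorts. It had 1069, 1188, 905, 937 and 987 normalized counts in Helios neg replicates 1 to 5, and 995, 1135, 859.7, 902 and 920.3 in Helios pos replicates 1 to 5. All 5 pairs were lower in Helios pos by a small and nearly constant amount, and the groups overlapped. The log2 change was −0.08 ± 0.09 (SE; limma adjusted p = 0.574), and the block gave a limma adjusted p of 0.20.

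**Figure D2:**
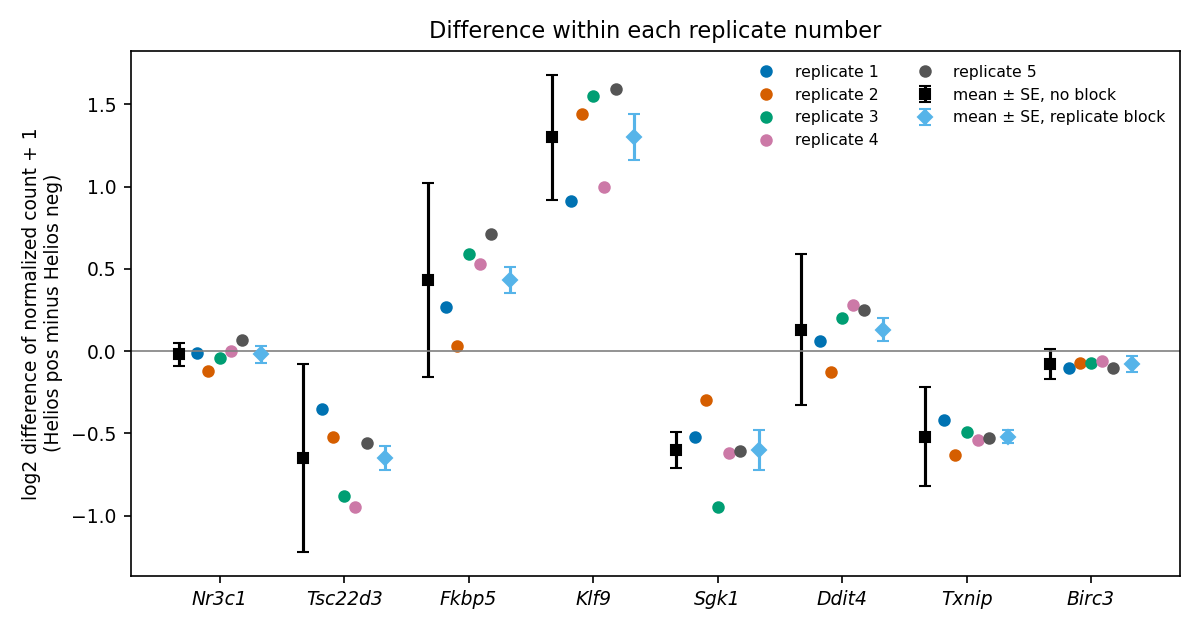
Log2 difference of normalized count + 1, Helios pos minus Helios neg, for the 8 genes. Coloured points are the 5 pairs of equal replicate number, the black square and bar are the mean with the SE of the fit without a block, and the blue diamond and bar are the mean with the SE of the fit with the replicate number as a block. The bars of Tsc22d3 (0.57 against 0.07) and Fkbp5 (0.59 against 0.08) differ most.

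Read pair by pair, 6 of the 8 genes differed between the sorts in the same direction in 5 of 5 pairs, which 39.8% of all genes tested did. With the replicate block 2 of the 8 were called higher, Klf9 and Fkbp5, against 18.9% of all genes. The block called 3 of the 8 lower, Tsc22d3, Txnip and Sgk1, against 18.5% of all genes. So 5 of the 8 were called in that fit, divided between the directions. Without replicate 2 in either sort, the blocked changes of Tsc22d3 and Fkbp5 were −0.68 and 0.53 (limma adjusted p = 7.69e-06 and 2.78e-05).

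Per kilobase of exon, the order of the levels in Helios neg cells was led by Txnip, at 1284 ± 577 normalized counts per kb (SD, n = 5). Ddit4 at 232 ± 166, Tsc22d3 at 225 ± 147, Birc3 at 203 ± 22.7 and Nr3c1 at 187 ± 14.9 normalized counts per kb followed and did not differ beyond their spread. Fkbp5 at 66.3 ± 49.0, Sgk1 at 25.4 ± 2.16 and Klf9 at 9.44 ± 5.16 were lower. In Helios pos cells Klf9, at 23.8 ± 14.5 normalized counts per kb, and Sgk1, at 16.7 ± 1.97, had ranges that overlapped.

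Most of the variation of these genes was shared by both sorts. The sum of squares of each gene's log2 values was divided into a share for sort, a share for replicate number, and the rest. Replicate number holds 4 of the 9 degrees of freedom, and its median share was 44.3% over all genes tested. Among the 8 genes the median share of replicate number was 86.3%, and that of sort 10.5%. It was 97.9% for Ddit4, 92.3% for Fkbp5, 92.1% for Birc3, 87.6% for Nr3c1, 84.9% for Tsc22d3 and 75.6% for Txnip. Klf9 was divided about evenly, with 46.5% for replicate number and 51.0% for sort. Sgk1 was the reverse of the others, with 85.2% for sort and 4.27% for replicate number.

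**Figure D3:**
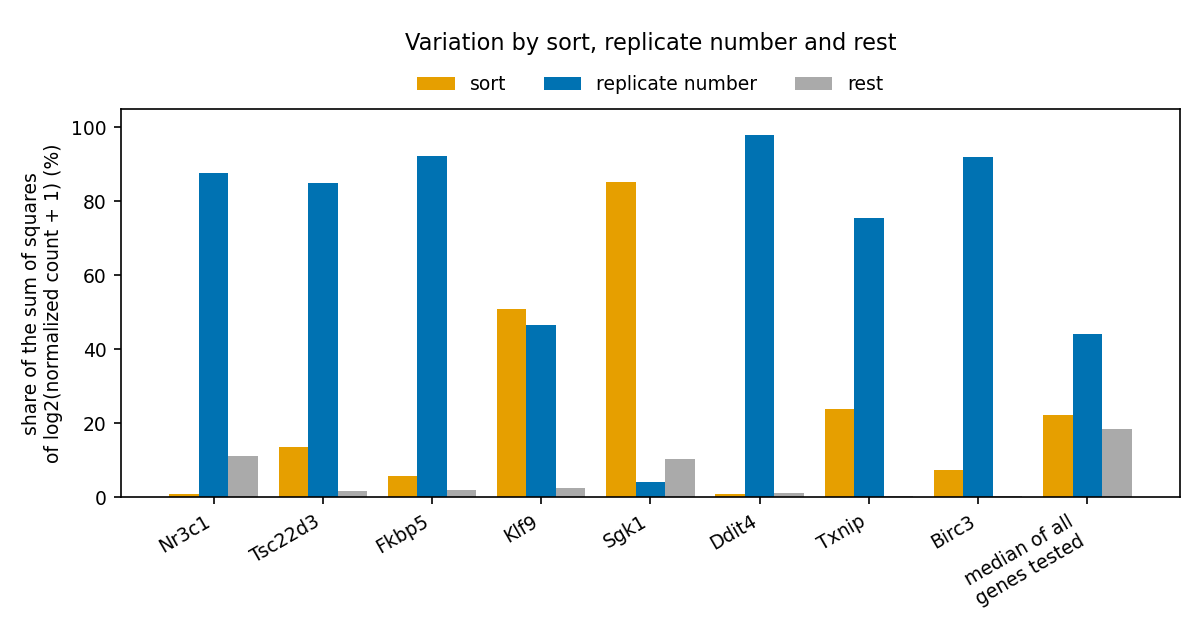
Share, in percent, of the sum of squares of log2(normalized count + 1) over the 10 libraries that went with sort, replicate number and the rest, for the 8 genes and as the median of each share over all genes tested. Blue bars for replicate number exceed 75% for 6 genes, and the orange bar for sort exceeds it for Sgk1 alone (85.2%).

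An F test for replicate number in limma, with sort in the model, called 6 of the 8 genes, where it called 18.3% of all genes. The adjusted p of this F test in limma was 5.39e-10 for Ddit4, 1.71e-10 for Txnip, 4.45e-09 for Tsc22d3 and 1.52e-08 for Fkbp5. Klf9 and Birc3 had 8.8e-05 and 0.00398, and Nr3c1 (0.0947) and Sgk1 (0.904) were not called. Klf9 and Birc3 lost the call when both libraries of replicate 2 were left out (adjusted p = 0.159 and 0.191), and the other four kept it. Without limma's trend and robust estimation the F test called 10 of the 10718 genes, and Tsc22d3, Fkbp5, Ddit4 and Txnip were among them, each at an adjusted p of 0.0483.

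The spread shows how closely the sorts of a replicate went together. The SD of log2 values of Tsc22d3 was 0.83 in Helios neg and 1.01 in Helios pos libraries, while the SD of its pair differences was 0.25. For Fkbp5 the SDs were 1.08 and 0.83 within the sorts and 0.27 for the pair differences. Txnip had 0.55 and 0.49 within the sorts and 0.08 for the pair differences. Over all genes tested the median SDs were 0.21 and 0.16 within the sorts and 0.20 for the pair differences. For Sgk1 the pair differences, with an SD of 0.24, spread more than the libraries of a sort (0.12 and 0.16).

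The order of the 5 replicates was the same in both sorts for 4 of the 8 genes, namely Fkbp5, Ddit4, Txnip and Birc3, where 4.92% of all genes tested had such an order. Replicate 2 was the highest library in both sorts for 6 of the 8, all but Nr3c1 and Sgk1, against 4.24% of all genes. This measure was chosen after the values had been seen, and the 6 genes share the same 2 libraries. Replicate 2 stood 2.93-fold above the mean of the other replicates for Tsc22d3 in Helios neg and 3.12-fold in Helios pos libraries. The same ratios were 3.26 and 2.63 for Ddit4, 2.67 and 2.01 for Fkbp5, and 2.22 and 2.02 for Txnip. Below replicate 2 the genes parted. Replicate 1 was next in both sorts for Fkbp5, Tsc22d3, Ddit4 and Birc3, but was only the fourth of 5 for Txnip.

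Of the read totals, Rn45s shares and marker sums given here, none was highest in replicate 2 of both sorts, and some were lowest there in both. Summed Treg markers (6 genes) ranged from 14080 to 17456 and from 15247 to 18116, with replicate 2 at 15548 and 18059. Of these 6 genes Ctla4 alone was highest in replicate 2 of both sorts, at 1.64 and 1.44 times the mean of the others. The reads of the replicate 2 libraries numbered 5727647 and 6948692, the second being the largest total, and Rn45s took 12.1% and 11.7%. Summed B cell markers (7 genes) ranged from 1717 to 2412 normalized counts in Helios neg and from 1499 to 2124 in Helios pos libraries, with replicate 2 at 1717 and 1518. Cd22 and Ms4a1 were the most abundant of them. Summed myeloid markers (7 of 8 listed genes in the table, led by Lyz2 and Itgam) ranged from 209.6 to 349 and from 284 to 555, with replicate 2 lowest in both sorts. Markers of CD8 T and NK cells (6 genes, led by Cd8b1 and Cd8a) ranged from 460.4 to 561 and from 434 to 505, and replicate 2 was again lowest in both. Dendritic cell markers (6 genes, led by Siglech and Itgax) ranged from 59.4 to 98.3 and from 82.0 to 106, with replicate 2 at 67.7 and 89.5. Of 7 erythroid markers the table held Alas2, which was at 0 in Helios neg and 0.836 in Helios pos replicate 2 and reached 19.7 and 13.6 elsewhere. In replicate 1, which was next to replicate 2 for Fkbp5, Tsc22d3, Ddit4 and Birc3, the B cell sums (2412 and 2124) and the myeloid sums (349 and 555) were the highest of both sorts. The part of such cells in the spread of the target genes was not tested, and in bulk libraries fewer cells of a type and less RNA per cell cannot be told apart.

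Genes known to respond to the handling of cells gave a different pattern. Summed over 15 genes they ranged from 4305 to 6695 normalized counts in Helios neg and from 5120 to 6827 in Helios pos libraries, and replicate 3 was the highest in both sorts. Replicate 2, at 4712 and 5568, was the next to lowest in both. Gene by gene, replicate 2 was the lowest in both sorts for 4 of the 13 tested, against 3.63% of all genes. It was the highest in both for 0 of the 13, against 4.24%. Of 13 tested, limma called 4 higher in Helios pos cells and 0 lower (1 lower at an unadjusted p under 0.05, 0 with edgeR and 0 with DESeq2). The 4 were the immediate early genes Junb, Egr1, Egr3 and Nr4a1, with log2 changes of 0.67, 0.47, 0.69 and 0.86. The 4 higher stand beside 14.1% of all genes. With the replicate block 5 were higher and 1 lower, where 18.9% and 18.5% of all genes were. The F test for replicate number called 6 of the 13 (18.3% of all genes) and 4 without replicate 3 (10.1% of all genes). Without trend and robust estimation it called 0 (0.0933% of all genes). Their part in the spread of the target genes was not tested.

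The chaperones that fold and hold the receptor also varied with replicate number, but in another order. Of 18 listed genes, all tested, limma called 0 higher and 0 lower between the sorts, where it called 14.1% and 10.7% of all genes. At an unadjusted p under 0.05, 2 were higher and 0 lower. With edgeR and with DESeq2 the count was also 0. The replicate block called St13 and Bag3 higher and Dnaja1 lower, where it called 18.9% and 18.5% of all genes. Without Helios neg replicate 3 limma called 2 of the 18. The 4 with the smallest p were Bag3, St13, Stub1 and Ppid, with log2 changes of 0.43, 0.34, 0.14 and −0.14. The F test for replicate number called 13 of the 18, where it called 18.3% of all genes. It called 9 without replicate 3, where 10.1% of all genes were called. Without limma's trend and robust estimation it called 0, where 0.0933% of all genes were called. Hsph1, a relative of Hsp70, had 907 ± 404 and 822 ± 290.5 normalized counts (SD, n = 5), with 96.0% of its sum of squares in replicate number. The constitutive Hsp70 gene Hspa8 had 16248 ± 5493 and 14503 ± 3223. Replicate 3 was the highest in both sorts for 15 of the 18, against 13.2% of all genes tested, and replicate 2 for 0 of the 18. Nr3c1 had replicate 3 highest and replicate 1 lowest in both sorts, as Hspa8 did.

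Among coregulators of the receptor the median share of the sum of squares was 65.6% for sort and 24.7% for replicate number, against 22.4% and 44.3% over all genes. Of 23 genes tested, 2 were higher in Helios pos cells, Carm1 and Ehmt2, and 7 were lower, namely Ncoa2, Ncoa3, Ncoa6, Crebbp, Med1, Arid1a and Kat2b, where 14.1% and 10.7% of all genes were. The F test for replicate number called 4, a share near the 18.3% of all genes. It called 2 with DESeq2 or without replicate 5, where 10.5% and 17.3% of all genes were called. Without trend and robust estimation it called 0 (0.0933% of all genes). Ehmt2, a histone methyltransferase, had 649 ± 27.8 normalized counts in Helios neg and 850.4 ± 51.6 in Helios pos cells (SD, n = 5), a log2 change of 0.39 ± 0.06 (limma adjusted p = 2.68e-04). Arid1a, a subunit of the SWI/SNF remodeler, changed by −0.36 ± 0.07 (limma adjusted p = 8.67e-04). The acetyltransferase gene Kat2b and the coactivator gene Ncoa6 changed by −0.45 and −0.28. With the replicate block 3 were higher and 12 lower, where 18.9% and 18.5% of all genes were. Without the block limma called 5 of the 23 in all with quantile normalization, and 5 without replicate 2. The median log2 change of the list was −0.12.

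Genes that set the supply of steroid, and receptors related to Nr3c1, were mostly not called between the sorts. Of 14 listed, 11 were in the table and 10 were tested, and limma called 2 higher and 1 lower, or 5 in all without Helios neg replicate 3. The counts stand beside the 14.1% of all genes called higher and the 10.7% called lower. Nr3c2 encodes the mineralocorticoid receptor, which also binds glucocorticoids and recognises the same element. It had 9.44 ± 3.47 normalized counts in Helios neg and 50.3 ± 8.48 in Helios pos cells (SD, n = 5), a log2 change of 2.34 ± 0.25 (limma adjusted p = 3.85e-06). Its mean in Helios neg was under the minimum of 10, so it passed that filter only through Helios pos, where it is high, and its call carries that limit. Abcb1a, an efflux pump known to export glucocorticoids, had 280 ± 22.1 and 742 ± 102 (log2 change 1.40 ± 0.09; limma adjusted p = 2.94e-08). Hsd11b1, the enzyme that makes active glucocorticoid from its inert form, had 266 ± 32.3 and 175 ± 25.8 (log2 change −0.61 ± 0.12; limma adjusted p = 1.06e-03). All 5 pairs were higher for Nr3c2 and Abcb1a and lower for Hsd11b1. The F test for replicate number called none of Nr3c2, Abcb1a and Hsd11b1 (limma adjusted p = 0.566, 0.0823 and 0.308).

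Further genes known to respond to glucocorticoids gave counts near the background between the sorts. Of 38 listed, 36 were in the table and 30 were tested. Between the sorts limma called 4 higher (Dusp1, Nfkbia, Cebpb and Bcl6) and 5 lower (Per2, Zfp36, Il6ra, Tgfbr3 and Ets2), near the 14.1% and 10.7% of all genes. With the replicate block 6 were called higher and 8 lower, where 18.9% and 18.5% of all genes were. The interleukin-6 receptor gene Il6ra and Tgfbr3, a co-receptor of TGF-β, changed by −1.25 ± 0.06 and −1.26 ± 0.10. Bcl6, a transcriptional repressor, had 194 ± 24.4 and 330 ± 20.6 normalized counts, and Cebpb, a leucine zipper factor, 29.7 ± 9.98 and 67.8 ± 16.9 (SD, n = 5). The median log2 change of the list was 0.04.

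The F test for replicate number called 13 of these 30, against 18.3% of all genes. When replicate 2 was left out of both sorts it called 7 of 30 (23.3%), near the 16.4% of all genes in that fit. Without trend and robust estimation it called 3, where 0.0933% of all genes were called. Replicate 2 was the highest in both sorts for 13 of the 30, against 4.24% of all genes, a measure chosen after values were seen. Il7r, the receptor of interleukin-7 and a known glucocorticoid-induced gene of T cells, had 1921 ± 1192 normalized counts in Helios neg and 1911 ± 1134 in Helios pos cells (SD, n = 5). Replicate number held 99.4% of its sum of squares (F test in limma, adjusted p = 1.43e-13), and replicate 2 stood 2.40-fold and 2.45-fold above the mean of the others. Zfp36l2, an RNA-binding protein gene, had 98.8% in replicate number and had the same replicate order as Ddit4 in both sorts. Replicate 2 was the lowest in both sorts for 6 of the 30, against 3.63% of all genes. The largest such gap was that of Lcn2, with replicate 2 at 0.227 and 0.466 of the mean of the others. Its mean level was low, at 11.8 ± 8.96 and 12.8 ± 4.07 normalized counts (SD, n = 5). Il7r, Zfp36l2 and Lcn2 were chosen after their values were seen.

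**Figure D4:**
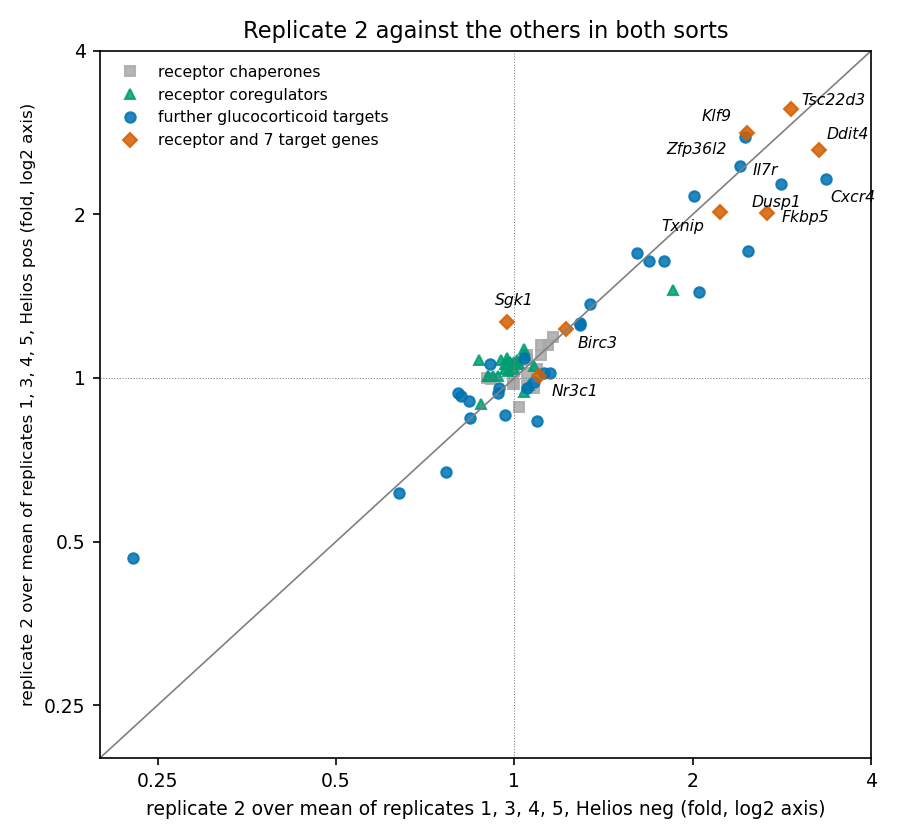
Normalized count of replicate 2 divided by the mean of replicates 1, 3, 4 and 5, in Helios neg (x axis) and Helios pos (y axis), on log2 axes. Each point is a gene of the receptor and target genes (orange diamonds), the further targets (blue circles), the coregulators (green triangles) or the chaperones (grey squares), and the solid line marks equal ratios. Tsc22d3 (2.93 and 3.12), Ddit4 (3.26 and 2.63) and a part of the further targets lie far along the line. Nr3c1 and the chaperones stay near 1, and Sgk1 lies at 0.972 and 1.27.

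Genes whose pattern over the 10 libraries was most like that of each of the 8 were ranked by the root mean square difference of log2 deviations from the own mean, over genes with a mean of at least 50. For Tsc22d3 they were Pik3ip1 (0.363), Zfp36l2 (0.446) and Cd69 (0.461). For Fkbp5 they were Il7r (0.302), Cxcr4 (0.313) and Ston1 (0.429), and for Klf9 Klhdc2 (0.357), Dusp1 (0.377) and Trib1 (0.407). Ddit4 was nearest to Zfp36l2 (0.222), Bbc3 (0.277) and Gpr65 (0.289), and Txnip to Ets2 (0.189), Acp5 (0.26) and Bcl2l11 (0.275). The root mean square of these 5 genes' own deviations was 0.886, 0.888, 0.908, 0.690 and 0.533, so each of these distances was smaller than the gene's own deviation. Nr3c1 (own deviation 0.094), Birc3 (0.146) and Sgk1 (0.325) varied less. Nr3c1 was nearest to March6, Tex261 and Clint1, Birc3 to Srpk2, Tbp and Zfp287, and Sgk1 to Il4ra, Fam84b and Cep68. Of the 23 different neighbours, 8 were on the list of further targets, all of them beside Tsc22d3, Fkbp5, Klf9, Ddit4 or Txnip. That list holds 24 of the 8497 genes with a mean of at least 50, and was chosen with earlier results of these data known. The nearest of so many genes can be close without a shared cause. The distances share the same 10 libraries and are given as a description.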

How the data were processed

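Per the labels' protocols, total RNA was isolated with a column kit and a DNase I step, and made into libraries with a stranded low-input kit. The submitters' processing notes name DESeq2, HTSeq, HISAT2 2.0.4 and mm10 but not what each was used for. Annotation and strand setting were not given in the sources used here. The authors deposited 1 table of normalized counts, a signal that is never negative. Every value (100%, tolerance 0.001) came out as a whole number when divided by its library's smallest nonzero value, which gave the read counts back.

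A mean normalized count of at least 10 was required, which kept 10718 genes and left out 2534. They were tested with limma 3.58.1 (R 4.3.3; trend and robust options on), using log2(normalized count + 1), a scale that understates changes of low genes. edgeR 4.0.16 and DESeq2 1.42.0 on the whole reads, other scalings, filters and pseudocounts, the replicate block and left-out libraries were alternatives. The test of replicate number was an F test with sort in the model. Deviations of same-numbered libraries from their group means correlated at 0.48, 0.19, 0.39, 0.16 and 0.15 across genes for replicates 1 to 5. The highest correlation with a library of another number in the other sort was 0.1, 0, 0.12, 0.1 and 0.12. The margin was thus small for replicates 4 and 5. All same-numbered values were over 0.1, as was 0.12 between other numbers, and each was above the highest with another number. The numbers were therefore taken as pairs, though the labels do not say why. Calls with the replicate block rest on that choice. Libraries of a sort differed by more than sampling noise (chi-square per degree of freedom 3.53 to 52.3), so none were merged.

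The genes and lists were chosen with earlier results of these data known. The text names all 8 genes, the check genes of the sort, the 4 genes with the smallest p of each pathway list, the 2 most abundant markers of each other cell type and the 3 nearest neighbours of each gene. A gene that this rule took is not reported here. Other genes are named to spell out calls or were chosen after their values were seen. Gene positions and exon lengths are from GENCODE vM21 (GRCm38).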

Additional observations from a re-analysis of the deposited data

Results flagged for a closer look

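In 6 of the 16 sets of 5 libraries looked at (8 genes, 2 sorts), the highest library lay further from its nearest neighbour than Dixon's 95% limit for 5 samples allows. Chance gives about 1 in 20 such sets where values are normally distributed, and the genes share libraries. The gaps were taken on normalized counts and not on the log2 scale of the tests. On that scale the gap of a high library takes a smaller part of the range. The 6 sets can therefore not be read against 1 in 20. In 5 of the 6 the library was replicate 2. Ddit4 stood at 914 normalized counts in Helios neg replicate 2 and at 837 in Helios pos replicate 2, with the gap to the next library taking 0.74 and 0.734 of the range. Txnip stood at 7155 in Helios neg replicate 2 (gap 0.768 of the range) and Klf9 at 237 in Helios pos replicate 2 (0.792). Sgk1 stood at 98.7 in Helios pos replicate 2 (0.715). In Helios neg cells the high library of Sgk1 was replicate 3, at 143 (0.788).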

How the results depend on the processing

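With the replicate block, 2 of the 8 genes were called higher and 3 lower, against 1 and 1 without it. The block also called 3 chaperones, 15 coregulators and 14 further targets (0, 9 and 9 without it), and 4000 of all genes against 2655. Quantile normalization called 5 coregulators, and 2724 of all genes. Leaving out libraries gave 0 to 1 of the 8 higher, 1 to 2 lower, 0 to 2 chaperones (2 without replicate 3 of Helios neg or of both sorts), 5 to 10 coregulators (5 without replicate 2) and 3 to 5 steroid supply genes (5 without Helios neg replicate 3). The sign for Nr3c1 turned with quantile normalization (0.06), with the block and replicate 2 left out (0.01), and within the leave-out range of −0.06 to 0.02. That for Ddit4 ranged from −0.15 to 0.48. Neither gene was called in any of these. Tsc22d3, Fkbp5, Klf9, Sgk1, Txnip and Birc3 kept their direction in all alternatives run. The fit without replicate 2 and with the block, and the block in edgeR, were added after the data had been seen. For replicate number, all genes called went from 1963 to 1124 with DESeq2, 1083 without replicate 3, 1280 without replicate 1 and 10 without trend and robust estimation. Of the 8 genes, 6 were called in the first 3 of these and 4 in the last. Causes were not tested. Klf9, at 22.4 to 237 normalized counts, is the one of the 8 that depth limits most.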
